A study of Glycine max with 18 samples.

Results

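Embryonic axes of soybean (Glycine max, cultivar BRS-284) taken after 36 hours of imbibition in 200 µM paclobutrazol (36P) were compared with axes taken after 24 hours in water (24C), to ask whether the treated axes were at the transcript stage of younger control axes. The 6 libraries, 3 per group, were chosen by their labels from 18 libraries in 6 conditions, namely seeds in paclobutrazol (PBZ, P) or water (control, C), sampled 12, 24 or 36 hours after the start of imbibition (HAI). All seeds germinated on wet cotton at 28 ºC with 12 hours of light and 12 of dark, and each sample combined 3 plates of 20 seeds. The labels number 3 replicates per condition without naming separate seed lots, so the p-values measure the spread between these samples. Because 36P and 24C differ in PBZ, in 12 hours of imbibition and in the position within the light cycle, these cannot be told apart from this comparison alone. The 36 HAI control (36C) was therefore set beside it, and the comparisons of 36P and of 36C with 24C share the 24C libraries.

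Germination begins with water uptake by the dry seed and is completed when the radicle emerges. Gibberellin (GA) promotes it: bioactive GA binds the GID1 receptor, the complex captures DELLA proteins, and the loss of these repressors releases genes for cell wall loosening and elongation. PBZ blocks GA synthesis at ent-kaurene oxidase. As germination proceeds, transcripts stored during seed maturation, such as those for late embryogenesis abundant (LEA) proteins and oleosins, are lost, while transcripts for walls, division and photosynthesis accumulate.

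Expression is given as RPKM, a read density scaled to transcript length and to the mapped reads of the library, so that levels can be compared between genes. Genes that averaged 1 RPKM or more in 36P or in 24C were tested on log2(RPKM + 0.1) with limma, and all log2 changes below are on this scale, which understates the change of weakly expressed genes. A gene was called when its p, adjusted over all genes tested by the Benjamini-Hochberg method, did not exceed 0.05 and its log2 change was 1 or more in size. In bulk axes, fewer cells of a type and less RNA per cell cannot be told apart.

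The 36P libraries held 31902, 32000 and 31947 genes at 1 RPKM or more, against 30270, 30655 and 30633 in the 24C libraries. Depth relative to 24C replicate 1 was estimated from the commonest ratio between low RPKM values of the same genes. It was 0.94, 0.812 and 1.42 in 36P, against 1, 1.25 and 1.71 in 24C. The study picked 63 genes as raised by PBZ at 24 HAI and lowered at 36 HAI. Of these, 26 resemble chloroplast genes and 17 mitochondrial genes. All 63, called organelle-like here, made up 0.242, 0.382 and 0.415% of summed RPKM in 36P, against 0.262, 0.248 and 0.308% in 24C. Other libraries of the series stood apart in this share: it was 5.03% in 36C replicate 3, 4.43 to 7.37% in the PBZ axes at 24 HAI (24P), 3.85 to 7.42% in those at 12 HAI (12P), and 11.4, 0.732 and 7.58% in the 12 HAI control (12C). Since the study picked these genes on these libraries, a share higher in 24P than 24C and in 36C than 36P follows in part from the choice. Counts of calls over all genes and stage values that use those libraries are given with their value under omission where it moved. The meristem genes SHORT-ROOT (Glyma.01G194200), AINTEGUMENTA-like 6 (Glyma.01G022500) and KNOTTED1-like homeobox 6 (Glyma.01G028300) were detected in all 6 libraries, at 3.41 to 9.41 RPKM, and none of them was called.

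Gene expression differed widely between 36P and 24C. Of 32904 genes tested, 4499 were called (13.7%), of which 3578 were higher in 36P (10.9%) and 921 were lower (2.8%). Before adjustment 18733 genes had a p of 0.05 or less, and for 20153 genes (61.2%) the 36P values did not overlap the 24C values. The median log2 change over all genes tested was -0.06 and the median size of change 0.35. Scaling altered the balance of directions: 79.5% of the calls were higher in 36P with RPKM as deposited, 80.9% with median-ratio size factors and 65.0% with quantile normalization, which gave 2803 higher and 1512 lower calls. The 36C libraries differed from the same 24C libraries at a similar number of genes, with 4428 of 32882 called (13.5%), 3482 of them higher (10.6%) and 946 lower (2.88%). Between 36P and 36C, 42 of 32752 genes were called (0.128%), 29 higher (0.0885%) and 13 lower (0.0397%), while 2900 had an unadjusted p of 0.05 or less. The study, using cuffdiff on its alignments with the same limits on fold change and adjusted p, reported more genes for these 2 conditions. A small number of limma calls therefore does not show that PBZ had little effect at 36 HAI. Without the organelle-rich 36C replicate 3, 17 genes were called by limma between 36P and 36C. Without 36P replicate 2 the number was 0 (2626 genes at an unadjusted p of 0.05 or less), without 36C replicate 1 it was 0 (2721 genes), without 36P replicate 1 it was 4 and without 36P replicate 3 it was 1, so the count of 42 changes with single libraries.

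The position of 36P along germination was read from genes chosen in other libraries. A comparison of 36C with 12C called 14109 of 33588 genes (42.0%), and the 8834 higher (26.3%) and 5275 lower (15.7%) in 36C formed a rising and a falling list that used neither 36P nor 24C. For each library, the stage value was the mean log2(RPKM + 0.1) over the rising list minus that over the falling list. It was 1.19, 1.24 and 1.08 in 36P (1.17 ± 0.0826, SD, n = 3), against -0.70, -0.30 and -0.41 in 24C (-0.47 ± 0.206, SD, n = 3), a difference of 1.63. Every 36P library lay above every 24C library, so by this measure the treated axes were not at the stage of the 24 HAI control.

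In 36C, whose libraries helped to choose the lists and whose place is in part fixed by that choice, the stage value was 1.23, 1.41 and 1.04. The 36P value lay 0.06 below the 36C mean, within the spread of the replicates of either group. PBZ axes at 24 HAI had -1.37, -0.56 and -0.62, 0.38 below 24C on average, with overlapping values. The 12 HAI libraries lay far below, with means of -3.40 in 12P and -3.33 in 12C. The difference between 36P and 24C was 1.52 to 1.72 when any single library of 36P, 24C, 36C or 12C was left out.

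**Figure D1:**
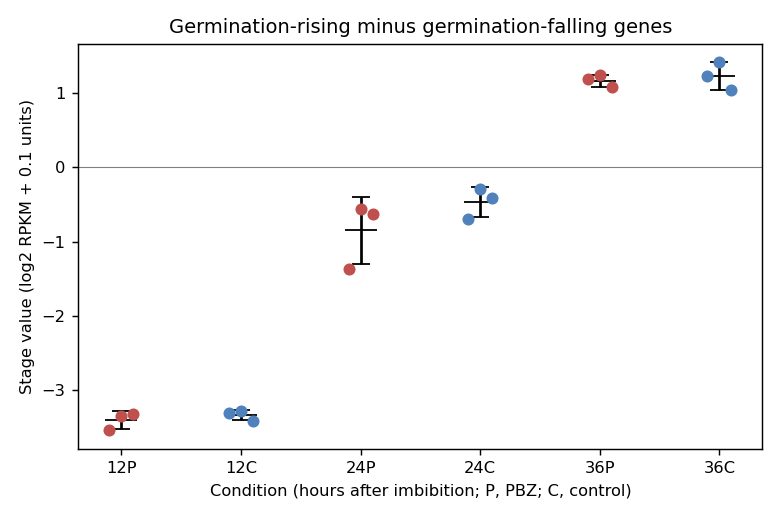
Stage value of each library (mean log2(RPKM + 0.1) over genes rising from 12C to 36C minus that over genes falling), by condition from 12 to 36 HAI, with PBZ in red and control in blue; points are libraries and bars are mean ± SD (n = 3). The 3 libraries of 36P lie between 1.08 and 1.24, above all 24C libraries (-0.70 to -0.30) and within the range of 36C.

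Both ends of the stage value contributed. Over the rising list, the mean log2(RPKM + 0.1) was 2.87 ± 0.0383 in 36P and 1.91 ± 0.129 in 24C, and over the falling list it was 1.71 ± 0.0447 in 36P and 2.37 ± 0.0844 in 24C (SD, n = 3 each).

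A second measure did not use those lists. The distance between 2 libraries was taken as the median absolute log2 difference over the 34475 genes with a mean of at least 1 RPKM in any condition. It had a median of 0.378 (0.338 to 0.425) over the 9 pairs of 36P with 24C libraries and 0.201 (0.147 to 0.234) over the 9 pairs of 36P with 36C libraries, with no overlap between these ranges. Replicates of 36P lay 0.138 to 0.176 from each other and those of 24C 0.136 to 0.17. For 36P replicates 1, 2 and 3, the nearest library of another condition was 36C replicate 1 (0.147), 36C replicate 2 (0.171) and 36C replicate 1 (0.16). The distance of 36P to 24P was 0.407, and 36P was farther from 12C (0.834) and 12P (0.893) than from any 24 or 36 HAI condition.

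Gene by gene, the 2 lists moved apart in 36P relative to 24C. Of the 8578 rising genes tested, 3163 were called higher in 36P (36.9%, against 10.9% of all genes tested) and 18 lower (0.21%), with a median log2 change of 0.74 and 7712 positive changes. Of the 4641 falling genes tested, 767 were called lower (16.5%, against 2.8% of all genes tested) and 12 higher (0.259%), with a median of -0.55. The 19142 genes on neither list had a median of -0.14, with 215 called higher (1.12%) and 124 lower (0.648%).

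**Figure D2:**
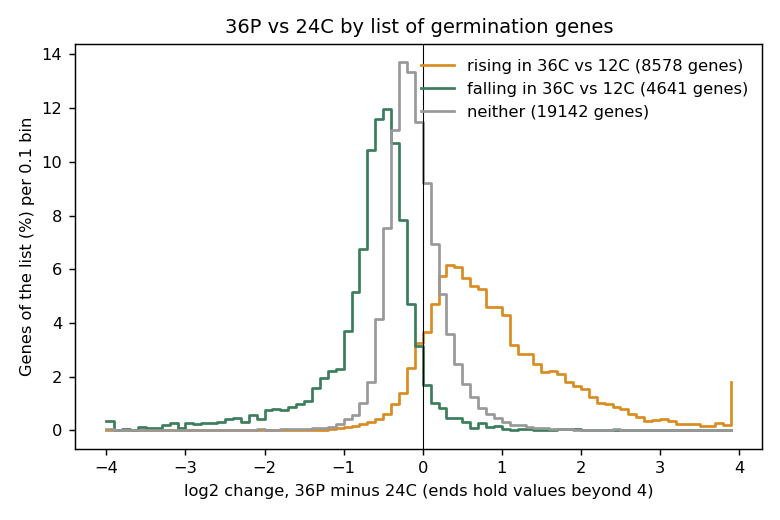
Percentage of genes by log2 change of 36P minus 24C, in bins of 0.1, for the rising (8578), falling (4641) and remaining (19142) genes; the outermost bins hold values beyond 4. The rising genes centre above 0 (median 0.74), the falling genes below (median -0.55) and the rest near 0 (median -0.14).

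The 12 largest falls with a description were dominated by stored seed transcripts, 9 of them from the seed maturation list of LEA proteins, dehydrins, oleosins and related genes. All 12 stand on study lists of PBZ-responsive genes, and only 410 of the 4499 called genes have a description. The make-up of these falls therefore follows in part from which genes are described. These falls, like the largest rises below, were taken only from genes whose 36P and 24C values did not overlap. Of the seed maturation list 14 of 15 members could be tested. All 14 were called lower in 36P (against 2.8% of all genes tested), with log2 changes of -4.03 to -2.72 and a median of -3.45. Of the 15 members, 14 stand on the study's lists of PBZ-responsive genes, drawn up on these libraries, so their direction is not independent evidence. Against 24C, 36C also had all 14 called lower, with a median of -2.01. Between 36P and 36C, 13 members were tested and 1 was called, lower in 36P, with a median of -1.41. All 13 had an unadjusted p of 0.05 or less in that comparison.

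An Em-like LEA gene (Glyma.03G056000), of a family that accumulates in the dry embryo, had 12.4, 9.72 and 14.5 RPKM in 36P, against 124, 130 and 356 RPKM in 24C. It stood at 104 ± 67.9 RPKM in 24P and 32.5 ± 9.63 in 36C (SD, n = 3 each). All 36P values were below all 24C values, and 24C replicate 3 was far above the other 24C libraries (log2 change -3.89, SE 0.40, limma adjusted p = 0.0005). The seed maturation gene PM41 (Glyma.08G160800) had 0.755, 0.646 and 0.863 RPKM in 36P, against 8.76, 11.5 and 26 RPKM in 24C, a log2 change of -4.03 (SE 0.37, limma adjusted p = 0.00035). It was the list member called between 36P and 36C, at a log2 change of -2.22 (limma adjusted p = 0.043). An oleosin (Glyma.16G071800), a coat protein of oil bodies, had 1.45, 1.13 and 1.52 RPKM in 36P, against 16.2, 11 and 27.9 RPKM in 24C, with a log2 change of -3.56 (limma adjusted p = 0.0003). A dehydrin (Glyma.09G185500) had 11.7, 4.36 and 9.18 RPKM in 36P, against 66.7, 46.5 and 138 RPKM in 24C. In each of these genes 24C replicate 3 was the highest library and no 36P value reached a 24C value.

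Other described falls were those of peroxygenase 2 (Glyma.10G189900), of a family that oxidises lipids at oil bodies, with 2.09, 3.37 and 3.04 RPKM in 36P against 38.4, 36.6 and 80.3 RPKM in 24C (log2 change -4.07, SE 0.32, limma adjusted p = 0.0002). A cytochrome P450 gene (Glyma.07G220400), described both as CYP87A6 and as related to CYP89A2, had 2.04, 0.52 and 5.48 RPKM in 36P. It had 40, 13 and 30.8 RPKM in 24C. Its replicates spread widely in both groups (log2 change -3.70, SE 0.78, limma adjusted p = 0.0078), and their lack of overlap was required by the choice.

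Small heat shock proteins (HSP20), chaperones that are also stored in seeds, were lower as well. Of 16 members, 15 were tested and 12 were called lower in 36P (against 2.8% of all genes tested), with a median log2 change of -2.16. All 16 stand on a study list of PBZ-responsive genes at 36 HAI. One member, Glyma.14G063700, had 5.84, 5.25 and 9.96 RPKM in 36P, against 46.9, 40.3 and 59.5 RPKM in 24C (log2 change -2.82, limma adjusted p = 0.00031). Glyma.07G200700 had 0.298, 0.558 and 0.45 RPKM in 36P, against 2.81 to 4.47 RPKM in 24C, and 36C lay near 24C at a mean of 2.69 RPKM. For the list as a whole 36C had 6 members lower and 2 higher than 24C, with a median of -0.54, and between 36P and 36C 0 of 16 members were called (15 at an unadjusted p of 0.05 or less), with a median of -1.22. At the other end of the list Glyma.01G106800 differed by 0.08 between 36P and 24C.

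Among the 12 largest described rises, 10 stand on study lists of PBZ-responsive genes. The largest was that of a lipid-transfer protein/2S albumin family gene (Glyma.15G119100), with 50.4, 23.2 and 48.8 RPKM in 36P, against 0, 0.111 and 0.163 RPKM in 24C. Its mean was 17.7 RPKM in 36C and 0.108 in 24P, and the log2 change of 36P against 24C was 7.77 (SE 0.43, limma adjusted p = 6.8e-05). A peroxidase (Glyma.03G039800), an enzyme class that acts on wall phenolics, had 89.5, 46.6 and 51.4 RPKM in 36P, against 2.03, 1.81 and 0.872 RPKM in 24C (log2 change 5.25, SE 0.35, limma adjusted p = 0.00012). In both genes every 36P library was above every 24C library, which the choice of the largest rises required.

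An arginase (Glyma.03G028000), which releases nitrogen from stored arginine, had 98.5, 129 and 117 RPKM in 36P, against 6.4, 2.8 and 2.44 RPKM in 24C. It was higher still in 36C, at 177 ± 49.8 RPKM (SD, n = 3), and its log2 change for 36P against 24C was 4.98 (SE 0.33, limma adjusted p = 0.00012). A cinnamyl-alcohol dehydrogenase (Glyma.18G177000), of the monolignol pathway, had 11.9, 9.52 and 14.3 RPKM in 36P, against 0.421, 0.294 and 0.823 RPKM in 24C. For this gene 36C stood lower, at a mean of 2.45 RPKM, and the difference between 36P and 36C was called (log2 change 2.27, limma adjusted p = 0.032). The remaining described rises had log2 changes of 4.47 to 6.56 and included another peroxidase (Glyma.18G055400), a dirigent-like protein (Glyma.01G126600), a glutathione S-transferase (Glyma.11G212900) and a lectin kinase (Glyma.02G156800).

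Without regard to description, Glyma.06G302600 had 38.2, 29.5 and 29.1 RPKM in 36P, against 0.118, 0.0471 and 0 RPKM in 24C. Glyma.09G193500 had 29.4, 13.4 and 16.5 RPKM in 36P and was listed at 0 in all 24C libraries. The falls of largest size were of genes listed at 0 in all 36P libraries, namely Glyma.12G185000 (13.2, 15.8 and 3.83 RPKM in 24C), Glyma.14G097700 (18.4, 3.67 and 5.34) and Glyma.08G226300 (10, 5.99 and 4.36). These 3 were also listed at 0 in 1 or 2 of the 3 libraries of 36C. Genes listed at 0 in some libraries of a group and at 5 RPKM or more in another numbered 95 of 22010 in 36P and 51 of 21495 in 24C.

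Of 4 photosynthesis genes annotated on chromosome 1, 3 were tested and 2 were called higher in 36P (against 10.9% of all genes tested). The third differed by -0.54. The chloroplast light-harvesting protein CP29 (Glyma.01G115900) had 146, 129 and 142 RPKM in 36P, against 11.2, 26 and 17.3 RPKM in 24C, with 146 ± 19 RPKM (SD, n = 3) in 36C. Its log2 change was 3.01 (SE 0.27, limma adjusted p = 0.00032). PSBO-2 (Glyma.01G180800), a subunit of the oxygen-evolving complex, had 77.3, 67.3 and 80.1 RPKM in 36P, against 9.65, 19.9 and 15.5 RPKM in 24C, a log2 change of 2.37 (limma adjusted p = 0.0005). Of the 26 genes that resemble chloroplast genes, 23 were tested and 9 were called higher in 36P (against 10.9% of all genes tested), with a median of 1.03. Quantile normalization gave 6 higher calls and a median of 0.476 for them. All 26, and 16 of the 17 mitochondrial copies, stand on the study's lists of PBZ-responsive genes at both 24 and 36 HAI. Their choice thus used both groups compared, and their share of calls is not independent evidence. In 36C against 24C, 2 of the 26 chloroplast-like genes were called higher, with a median of 1.74. That comparison includes 36C replicate 3, with an organelle-like share of 5.03%, against 0.187 and 0.223% in 36C replicates 1 and 2. The median without that library was not taken. Of the mitochondrial copies 0 of the 16 tested were called in 36P against 24C (2 at an unadjusted p of 0.05 or less), with a median of -0.28. Both sets of copies are part of the organelle-like share of a library, which was highest in 36P replicates 2 and 3 among these 6. The part of that share in the result was not tested.

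Of 15 cell division genes tested on chromosome 1, 2 were called higher in 36P, a share near the 10.9% of all genes tested, with a median of 0.01. Cyclin B2;3 (Glyma.01G159700), a mitotic cyclin, had 9.44, 8.06 and 6.62 RPKM in 36P, against 1.25, 2.15 and 1.8 RPKM in 24C (log2 change 2.17, SE 0.22, limma adjusted p = 0.00048). None of the 11 cytosolic ribosomal protein genes of that chromosome was called, against 13.7% of all genes tested. Of these 11, 2 had an unadjusted p of 0.05 or less, and their median was -0.10. AINTEGUMENTA-like 6, a meristem regulator, had 4.97, 4.59 and 5.04 RPKM in 36P, against 8.25, 7.33 and 7.62 RPKM in 24C, a log2 change of -0.66 that was below the limit of 1 (limma adjusted p = 0.0016).

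Many cell wall genes were higher in 36P. Higher calls in 36P were made for 7 of 11 tested glycosyl hydrolases (median log2 change 1.7), 7 of 9 peroxidases (1.52), 7 of 10 other cell wall genes (2.06), 3 of 7 structural wall proteins (0.38) and 1 of 3 expansins (0.26, or -0.01 with quantile normalization), against 10.9% and -0.06 over all genes tested, and none of them was called lower. In 36C against 24C, 8 of 12 glycosyl hydrolases (median 1.65), 6 of 8 peroxidases (2.68) and 7 of 9 other cell wall genes (1.9) were called higher. So were 3 of 7 structural wall proteins (0.97) and 2 of 4 expansins (0.85), and none was lower. These lists come from the study's PBZ-responsive genes. On the list of chromosome 1 cell wall genes, which had no member from those study lists, 6 of 20 were higher and 0 lower, with a median of 0.59. In 36C against 24C the same chromosome 1 list had 6 higher and 0 lower, with a median of 0.40.

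Beta glucosidase 17 (Glyma.15G271000) was the most strongly expressed of these, with 541, 564 and 518 RPKM in 36P, against 83.4, 120 and 102 RPKM in 24C (log2 change 2.43, SE 0.13, limma adjusted p = 5.8e-05). An alpha-L-arabinofuranosidase (Glyma.19G124600), which removes arabinose from wall polymers, had 23.1, 18.3 and 17.4 RPKM in 36P, against 3.73, 2.13 and 1.69 RPKM in 24C (log2 change 2.98, limma adjusted p = 0.00034). XTH26 (Glyma.01G146000), of the enzymes that cut and rejoin xyloglucan, had 11.9, 5.43 and 7.29 RPKM in 36P, whereas 24C had 0.048 RPKM in replicate 2 and was listed at 0 in replicates 1 and 3. In these 3 genes the 36P libraries were all above the 24C libraries by a wide margin.

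A gene of the invertase/pectin methylesterase inhibitor family (Glyma.01G137700) had 15.3, 12.2 and 11.3 RPKM in 36P, against 0.0683, 0.0275 and 0.0201 RPKM in 24C (log2 change 6.56, SE 0.23, limma adjusted p = 2.8e-05). The expansin-like B1 gene Glyma.01G204800 had 4.24, 6.27 and 7.98 RPKM in 36P, against 0.498, 1.24 and 1.77 RPKM in 24C (log2 change 2.40, limma adjusted p = 0.0041). Its relative Glyma.11G038300 had 1.18, 1.1 and 1.69 RPKM in 36P, against 0.207, 0.22 and 0.723 RPKM in 24C, and its call was lost without 36P replicate 3 or 24C replicate 2. One peroxidase, Glyma.04G220600, stood between the controls, with 3.38, 6.23 and 4.46 RPKM in 36P, 22.5 ± 9.94 RPKM (SD, n = 3) in 36C and 0.105, 0.549 and 0.216 RPKM in 24C. Its change of 3.74 from 24C was called, and its difference of -2.19 from 36C was not (limma adjusted p = 0.084).

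**Figure D3:**
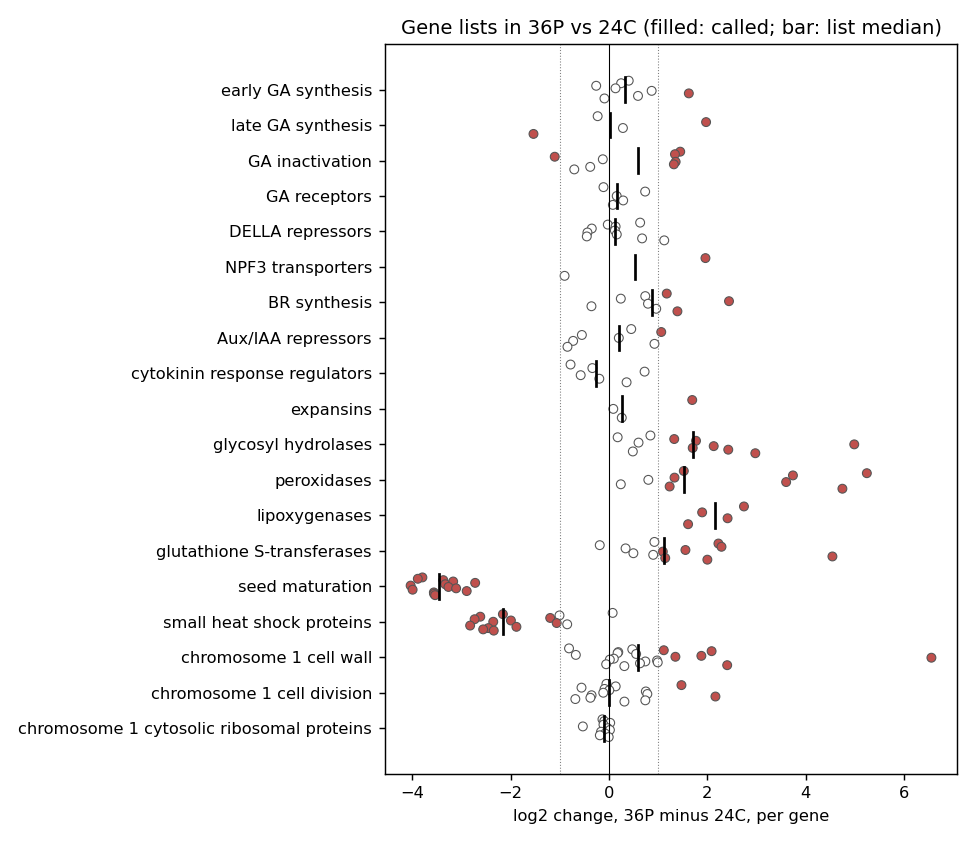
Log2 change of 36P minus 24C for each tested gene, by gene list; filled points were called, short bars are list medians and dotted lines mark a change of 1 in either direction. Seed maturation genes (median -3.45) and small heat shock proteins (-2.16) lie below 0, wall lists and lipoxygenases above it, and the GA receptors and DELLA genes close to 0.

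Among the gibberellin genes, none of whose synthesis members was picked from these libraries, calls were made for synthesis and inactivation genes. No receptor or DELLA gene was called, but these lists are short, and a difference between the lists was not tested. Of 8 early synthesis genes, from ent-copalyl diphosphate synthase (CPS) and kaurene synthase (KS) to ent-kaurene oxidase (KO) and kaurenoic acid oxidase (KAO), 1 was called higher in 36P (against 10.9% of all genes tested), with a list median of 0.33. It was the KAO gene Glyma.15G135200, with 47.8, 46 and 52 RPKM in 36P (48.6 ± 3.04, SD, n = 3), against 13.4, 17.5 and 16.4 RPKM in 24C (15.8 ± 2.13, SD, n = 3). Its log2 change was 1.62 (SE 0.11, limma adjusted p = 0.00012). In 36C it stood at 61 ± 6.57 RPKM (SD, n = 3), and its difference of -0.32 between 36P and 36C was not called. The KO gene Glyma.15G002200, for the enzyme that PBZ inhibits, had 2, 2.26 and 2.46 RPKM in 36P, against 1.41, 1.08 and 1.07 RPKM in 24C, a log2 change of 0.87 (limma adjusted p = 0.0076) under the limit of 1. The other 6 genes, CPS (Glyma.03G154700, Glyma.19G157000), KS (Glyma.08G163900, Glyma.15G263300), KO (Glyma.13G371400) and KAO (Glyma.09G029400), changed by no more than 0.59 in size and were not called.

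Of the late synthesis genes, which make bioactive GA through GA 20-oxidase (GA20ox) and GA 3-oxidase (GA3ox), 4 of 5 were tested, 1 was higher (against 10.9% of all genes tested) and 1 lower (against 2.8%) in 36P. GA20ox Glyma.10G241100 had 4.75, 3.08 and 3.77 RPKM in 36P, against 0.722, 0.749 and 1.3 RPKM in 24C (log2 change 1.98, SE 0.27, limma adjusted p = 0.0014), and 36C stood at 3.62 ± 0.101 RPKM (SD, n = 3). GA3ox Glyma.15G012100 had 7.42, 5.64 and 4.73 RPKM in 36P, against 21, 21.8 and 10.9 RPKM in 24C (log2 change -1.53, SE 0.29, limma adjusted p = 0.0048), with 3.47 ± 1.51 RPKM (SD, n = 3) in 36C. The lowest 24C value, in replicate 3, was still above all 36P values. The more strongly expressed GA3ox gene Glyma.13G361700 had 70.4, 72 and 58.6 RPKM in 36P, against 55.5, 58.6 and 50.5 RPKM in 24C. Its log2 change of 0.28 was not called, its groups met at 58.6 RPKM, and GA20ox Glyma.09G149200 differed by -0.23. GA20ox Glyma.06G155000 was below the level tested.

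GA 2-oxidases (GA2ox) inactivate GA. Of 9 genes 8 were tested, 4 were called higher in 36P (against 10.9% of all genes tested) and 1 lower (against 2.8%), with a list median of 0.60, or 0.26 with quantile normalization. GA2OX1 (Glyma.13G259400) had 29.3, 34.6 and 22.6 RPKM in 36P, against 6.2, 15.7 and 13.8 RPKM in 24C (log2 change 1.36, SE 0.34, limma adjusted p = 0.015), and without 24C replicate 1 the change was 0.95 and not called. GA2OX2 (Glyma.07G236100) had 2.63, 2.86 and 2.39 RPKM in 36P, against 0.792, 1.17 and 0.989 RPKM in 24C (log2 change 1.34, limma adjusted p = 0.0017). It averaged 0.75 RPKM in 36C, and its difference of 1.71 between 36P and 36C was not called (limma adjusted p = 0.079).

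The other GA2ox genes called higher were GA2OX4 (Glyma.05G130600), by 1.45, and Glyma.13G259500, by 1.32, neither above 2.64 RPKM in any of the 6 libraries. GA2OX8 (Glyma.11G104800) was lower, with 3.41, 2.54 and 1.82 RPKM in 36P against 5.43, 4.83 and 6.35 RPKM in 24C (log2 change -1.10, limma adjusted p = 0.007), and without 36P replicate 3 the change was -0.88 and not called. With a pseudocount of 1 in place of 0.1, 1 of the 5 calls in this list was left. The remaining tested members, Glyma.13G218200, Glyma.15G093900 and Glyma.15G248400, differed by -0.12, -0.38 and -0.70 and were not called. Glyma.10G010700 was below the level tested.

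None of the 5 GID1 receptor genes was called by limma, against 13.7% of all genes tested. Of the receptor genes 2 had an unadjusted p of 0.05 or less, and their median was 0.16. The largest difference was that of GID1b3 (Glyma.03G148300), with 20.6, 18.5 and 20.6 RPKM in 36P, against 11.4, 10.9 and 13.5 RPKM in 24C, a log2 change of 0.74 (limma adjusted p = 0.0014). Of 11 DELLA genes, which code for the repressors that GA removes, 10 were tested and 0 were called (against 13.7% of all genes tested). Of these 10, 2 had an unadjusted p of 0.05 or less, and the median was 0.13. RGL2 Glyma.18G040000 had 31.3, 23.1 and 27.1 RPKM in 36P, against 18.2, 16 and 16.5 RPKM in 24C, a log2 change of 0.67. Its groups did not overlap, whereas those of the more abundant RGL2 copy Glyma.11G216500 did, with 67.8, 56.3 and 65 RPKM in 36P against 54.8, 56.5 and 57.4 RPKM in 24C. Glyma.20G200500 had the widest DELLA change, 1.12 (limma adjusted p = 0.064). It was called with all 18 libraries in 1 fit (limma adjusted p = 0.00768) and with the replicate block (limma adjusted p = 0.0464), and its change was 0.47 with quantile normalization.

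NPF3 proteins transport GA in Arabidopsis. The 2 soybean genes, both on study lists of PBZ-responsive genes, differed in direction. Glyma.03G122500 had 68.8, 57.2 and 80.7 RPKM in 36P (68.9 ± 11.8, SD, n = 3), against 12.9, 19.6 and 21 RPKM in 24C (17.8 ± 4.34, SD, n = 3), a log2 change of 1.96 (SE 0.20, limma adjusted p = 0.00053). It stood at 24.8 ± 6.87 RPKM (SD, n = 3) in 36C, which differed from 24C by 0.46 and was not called. Glyma.03G123000 had 9.72, 5.41 and 10.5 RPKM in 36P, against 15.3, 15.3 and 15.7 RPKM in 24C, a log2 change of -0.90 (SE 0.23, limma adjusted p = 0.017). That value was under the limit of 1 and passed it without 36P replicate 1 or 3 (-1.02 and -1.08). In 36C it was lower, at a mean of 4.02 RPKM, and its change of -1.99 from 24C was called.

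Brassinosteroids promote cell elongation together with GA. Of 8 brassinosteroid synthesis genes, 3 were called higher in 36P (against 10.9% of all genes tested) and 0 lower, with a median of 0.88. All 8 came from study lists of PBZ-responsive genes. Against the same 24C libraries, 36C had 0 higher and 3 lower, with a median of -0.39. DWF4 (Glyma.11G067700), a steroid hydroxylase early in the pathway, had 18.6, 31.8 and 19.9 RPKM in 36P (23.5 ± 7.27, SD, n = 3), against 3.58, 4.68 and 4.15 RPKM in 24C (4.14 ± 0.551, SD, n = 3), a log2 change of 2.44 (SE 0.21, limma adjusted p = 0.00028). Its mean was 9.12 RPKM in 24P and 6.24 RPKM in 36C. The other DWF4 gene, Glyma.01G175500, had 5.36, 7.16 and 5.35 RPKM in 36P, against 2.05, 2.94 and 2.77 RPKM in 24C (log2 change 1.18, limma adjusted p = 0.0023).

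BR6OX2 (Glyma.19G033900), which acts at the end of the pathway, had 19.5, 23.2 and 18.3 RPKM in 36P, against 8.03, 7.38 and 7.51 RPKM in 24C (log2 change 1.39, SE 0.10, limma adjusted p = 0.00017). Its level in 36C, a mean of 7.28 RPKM, was near that of 24C. DWF3 (Glyma.14G059900) had 10.4, 12.5 and 13.4 RPKM in 36P, against 19.9, 16.5 and 11.2 RPKM in 24C, and these values overlapped (log2 change -0.36, limma adjusted p = 0.19). This gene averaged 31 RPKM in 24P and 3.54 in 36C. Its changes of -2.10 for 36C against 24C and 1.75 for 36P against 36C (limma adjusted p = 0.027) were both called. The second BR6OX2 gene, Glyma.18G272300, was likewise not called between 36P and 24C (0.96) and was called higher in 36P than in 36C (2.02, limma adjusted p = 0.028).

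**Figure D4:**
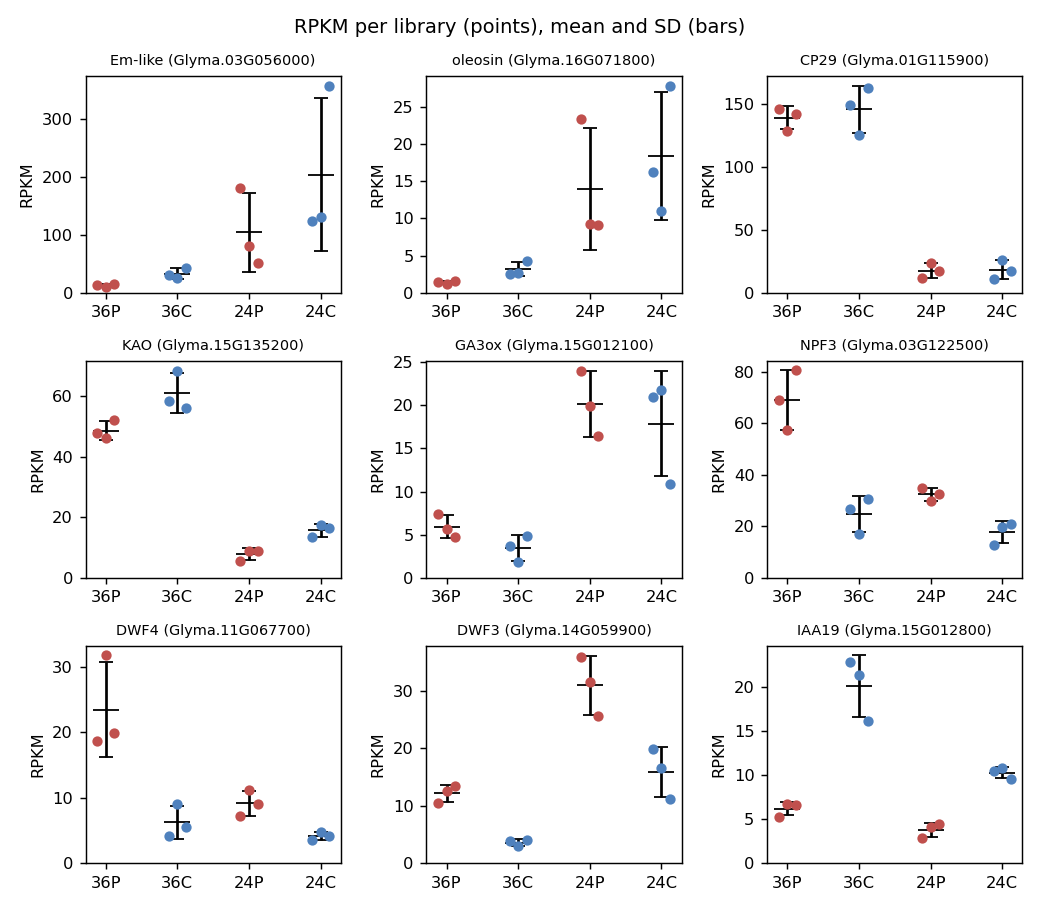
RPKM of 9 genes in each library, with conditions from left to right 36P, 36C, 24P and 24C; points are libraries and bars are mean ± SD (n = 3). CP29, KAO and GA3ox of 36P lie closer to 36C than to 24C, NPF3 and DWF4 of 36P lie above both, and DWF3 lies nearer 24C. The Em-like gene, the oleosin and IAA19 of 36P lie below both, with the Em-like gene and the oleosin closer to 36C.

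Auxin genes were examined as repressors of the response and as other genes of synthesis, transport and response. The 7 Aux/IAA genes, which code for repressors of auxin response, all came from study lists of PBZ-responsive genes. Of these, 1 was called higher in 36P (against 10.9% of all genes tested), with a median of 0.20, while 4 were called higher in 36C, with a median of 1.45. IAA14 (Glyma.03G158700) had 16.6, 20 and 15.6 RPKM in 36P, against 17.4, 9.54 and 12 RPKM in 24C, with overlapping values and a log2 change of 0.45 (limma adjusted p = 0.12). It stood at 42.8 ± 3.96 RPKM (SD, n = 3) in 36C, and 36P was called lower than 36C, by a log2 change of -1.30 (limma adjusted p = 0.028). IAA19 (Glyma.15G012800) had 5.28, 6.66 and 6.65 RPKM in 36P, against 10.4, 10.8 and 9.58 RPKM in 24C, and 20.1 ± 3.54 RPKM (SD, n = 3) in 36C. Every 36P value was below every 24C value, but the log2 change of -0.73 was under the limit. IAA29 (Glyma.04G066300), the gene called higher, had 1.95, 1.14 and 1.53 RPKM in 36P against 0.46, 0.98 and 0.654 RPKM in 24C, and lost its call in 8 alternative analyses. Of the 9 other auxin genes, also from study lists, 6 were tested. Of these 6, 3 were called higher in 36P (against 10.9% of all genes tested), with a median of 1. Quantile normalization gave 1 higher and 1 lower call and a median of 0.39. The 3 genes called without it were a SAUR-like gene (Glyma.01G078200), GDG1 (Glyma.03G149400) and the auxin efflux carrier gene PIN2 (Glyma.15G208600), with log2 changes of 1.24, 1.10 and 1.08.

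Response regulators of cytokinin signalling were not called. Of 7 genes, all from study lists, 6 were tested and 0 were called by limma in 36P against 24C (13.7% of all genes tested were). Of these 6, 3 had an unadjusted p of 0.05 or less, and the median was -0.27. Against 24C, 36C had 1 called higher and a median of 0.87. The RR3 gene Glyma.02G027400 had 5.3, 6.44 and 5.61 RPKM in 36P, against 8.18, 6.66 and 7.16 RPKM in 24C (log2 change -0.34, limma adjusted p = 0.048). It averaged 12.7 RPKM in 36C, from which 36P differed by -1.12 (limma adjusted p = 0.028).

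Abscisic acid is the hormone that opposes germination. Of 7 of its genes, all from study lists, 6 were tested and 2 were called higher in 36P (against 10.9% of all genes tested), with a median of 0.26. The transporter gene ABCG40 (Glyma.19G169400) had 17.8, 13.7 and 22.8 RPKM in 36P, against 2.63, 2.97 and 3.35 RPKM in 24C (log2 change 2.54, limma adjusted p = 0.00017). ABF1 (Glyma.02G131700), a bZIP factor of the abscisic acid response, had 3.98, 4.27 and 3.4 RPKM in 36P, against 1.86, 1.87 and 1.8 RPKM in 24C, a log2 change of 1.03 that fell below 1 without 36P replicate 2, with a pseudocount of 1 or with quantile normalization. NCED3 (Glyma.08G176300), for a rate-limiting enzyme of abscisic acid synthesis, differed by 0.63 and was not called. On a separate list of 12 chromosome 1 hormone genes, 2 were called higher in 36P (against 10.9% of all genes tested) and 0 lower, with a median of 0.295. One of those called was a CYP707A gene (Glyma.01G153300), whose family breaks down abscisic acid. It had 23.5, 19.8 and 27.4 RPKM in 36P, against 8.19, 8.74 and 13 RPKM in 24C (log2 change 1.25, limma adjusted p = 0.0024).

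Both jasmonate repressor genes tested, JAZ12 (Glyma.17G043700) and JAZ1 (Glyma.11G038600), were called higher in 36P (against 10.9% of all genes tested), by 1.90 and 1.38, and the JAZ1 call was lost without any one of 5 of the 6 libraries. All 4 lipoxygenases were called higher in 36P (against 10.9% of all genes tested), with a median of 2.15. One of them, Glyma.13G347800, reached 272, 382 and 270 RPKM in 36P, against 84.8, 136 and 85.3 RPKM in 24C (log2 change 1.61). In 36C against 24C all 4 were also called higher, with a median of 2.52. Of 12 glutathione S-transferases tested, 7 were higher (against 10.9% of all genes tested) and 0 lower, with a median of 1.12 in 36P and of 1.03 in 36C, each against 24C. Both JAZ genes, all 4 lipoxygenases and 8 of the 13 glutathione S-transferases listed stand on study lists of PBZ-responsive genes.

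The transcription factor lists were all taken from study lists of PBZ-responsive genes. On them, 7 of 10 tested MYB, 4 of 8 bHLH, 2 of 2 HD-ZIP and 1 of 2 WRKY genes were called higher in 36P (against 10.9% of all genes tested) and none of these list members lower. In 36C against 24C, 8 of 12 MYB, 8 of 10 bHLH and 2 of 2 HD-ZIP genes were called higher. Of the 2 WRKY genes, 1 was higher and 1 lower in 36C. The C2H2 gene tested (Glyma.17G064700) was lower, by a log2 change of -1.25, and 0 of the 4 S1Fa-like genes were called (2 at an unadjusted p of 0.05 or less). WRKY23 (Glyma.10G011300) had 8.25, 10.8 and 8.07 RPKM in 36P, against 0.535, 0.91 and 1.26 RPKM in 24C (log2 change 3.24, limma adjusted p = 0.00029). It was also called between 36P and 36C, where it averaged 3.78 RPKM (log2 change 1.23, limma adjusted p = 0.037). The MYB gene Glyma.17G245200 had 8.3, 7.63 and 7.78 RPKM in 36P, against 1.32, 1.53 and 1.17 RPKM in 24C (log2 change 2.48, limma adjusted p = 6.1e-05). Both genes were high in all 36P libraries with no overlap.

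The 30 genes called against the direction of the rising and falling lists, which were picked out after their values were seen, are a small part of the 4499 calls. On the falling list, an FAD/NAD(P)-binding oxidoreductase (Glyma.10G282200) had 15.7, 24.4 and 20.5 RPKM in 36P, against 2.35, 1.84 and 1.96 RPKM in 24C (log2 change 3.22, SE 0.18, limma adjusted p = 6.5e-05). It averaged 14.9 RPKM in 24P and 1.66 ± 0.377 RPKM in 36C (SD, n = 3), so the PBZ axes were high at both times. UGT73B3 (Glyma.11G000500), a glycosyltransferase, had 193, 159 and 209 RPKM in 36P, against 66.4, 57.2 and 82.8 RPKM in 24C (log2 change 1.45, limma adjusted p = 0.00057), and averaged 71 RPKM in 36C. On the rising list, UPBEAT1 (Glyma.20G175000), a factor that in Arabidopsis roots represses peroxidase genes and that the study's tables assign to no factor family, had 0.606, 0.815 and 0.711 RPKM in 36P, against 3.08, 1.4 and 2.18 RPKM in 24C (log2 change -1.46, limma adjusted p = 0.0072).

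The 42 genes called between 36P and 36C had their own pattern against 24C, given here for each comparison with its own values. Of the 29 that were higher in 36P than in 36C, 16 were called higher in 36P against 24C and 13 were not called, with a median log2 change of 1.33 for 36P against 24C and of -0.24 for 36C against 24C. Of the 13 that were lower in 36P than in 36C, 12 were tested against 24C, where 1 was higher, 2 were lower and 9 were not called. Their median was -0.50 for 36P against 24C and 1.08 for 36C against 24C. Since these genes were chosen by the difference of 36P from 36C, the gap between these medians follows from the choice.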

How the data were processed

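RNA-seq was done on embryonic axes in 18 libraries of 6 conditions, and 6 of them (36P and 24C) form the main comparison. The authors sequenced single-end polyA libraries, removed rRNA reads, aligned the rest to the soybean genome Wm82.a2.v1 with novoalign 3.06.05, kept uniquely mapped reads and deposited RPKM values from cufflinks 2.1.1 for 56044 genes. Unique mapping leaves near-identical gene copies with only the reads that tell them apart, so values of close paralogs are uncertain. The methods name a TruSeq RNA v2 kit, which does not mark strand, and a stranded cufflinks setting. How this affected the deposited RPKM was not tested, and reads of overlapping or antisense genes may not have been told apart. RPKM carries no counts, so no count test was run, depth enters only through ratios of low values, and the spread of 3 replicates sets the precision.

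Comparisons used limma 3.58.1 in R 4.3.3 on log2(RPKM + 0.1), fitted to the 6 libraries compared, with an empirical Bayes trend and Benjamini-Hochberg adjustment over all genes tested. Summaries used Python 3.11.15, numpy 2.4.6 and pandas 2.3.3. Stage values and distances are descriptions without a test, since 3 against 3 libraries allow no exact p below 0.1. Tested on simulated data for 36P against 24C, limma recovered 167 of 200 genes changed by 1.5 and 177 of 200 changed by 2 on the log2 scale among 31874 genes, with 2 other calls each. The changed genes were drawn from those averaging at least 2 RPKM, and the noise was normal and independent between libraries. Far fewer genes changed than in the real comparison, so these figures are not its error rate.

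The comparison, gene lists and members were chosen with earlier results of these data known. Of the 4499 called genes, 410 have a description and 268 stand on a study list of PBZ-responsive genes. Genes named are the 12 largest described rises and falls with no overlap between groups and a mean of at least 5 RPKM in the higher group, the 3 largest each way whatever their description, all GA genes, up to 4 called members of each other list with the largest change, and contrasting members. Descriptions come from the study's tables, which annotate 1801 genes, among them those of chromosome 1. The reference table used here matched 0 identifiers. Alternatives were pseudocounts of 1 and 0.01, no filter, a filter at 5 RPKM, quantile and median-ratio scaling, omission of organelle-like genes, all 18 libraries in 1 fit, a replicate block, no trend, and each replicate left out.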

Additional observations from a re-analysis of the deposited data

How the results depend on the processing

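With a pseudocount of 1, 36P against 24C gave 2864 calls (2283 higher, 581 lower) and with a filter at 5 RPKM 2323 (1777 higher, 546 lower), against 4499; 2845 and 2320 of these genes were among the 4499. Quantile normalization gave 1512 lower calls. For 36C against 24C the same settings gave 2817 (2267 higher, 550 lower), 2351 (1762 higher, 589 lower) and 1585 lower. For 36C against 12C the filter at 5 RPKM gave 8917 calls, 4969 of them higher. Leaving out single libraries gave 4006 to 4685 calls for 36P against 24C and 3890 to 4624 for 36C against 24C.

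For 36P against 36C, 7 genes were lower with a pseudocount of 1 and 7 with the filter at 5 RPKM, no filter gave 26 calls (18 higher, 8 lower), no trend 16 (11 higher, 5 lower), the replicate block 77 (48 higher, 29 lower), and leaving out single libraries 0 to 17 calls (0 to 14 higher, 0 to 4 lower).

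On the rising list in 36P against 24C, 2081 genes were higher and 6 lower with a pseudocount of 1, 1552 higher and 9 lower with the filter at 5 RPKM, and 28 lower without a filter. Leaving out single libraries gave 2869 to 3267 higher and 15 to 27 lower. On the falling list, 6 were higher and 496 lower with a pseudocount of 1, 5 higher and 455 lower with the filter at 5 RPKM, and 1282 lower with quantile normalization, and leaving out single libraries gave 8 to 17 higher and 661 to 843 lower. The stage value difference was 1.34 with a pseudocount of 1. Of the 331 listed or named genes, 30 lost their call with a pseudocount of 1 and 17 with quantile normalization, and no called gene changed sign in any of these alternatives. Without counts, no interval from depth can be given for genes near 1 RPKM.

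Same-numbered libraries of 36P and 24C deviated from their group means with correlations of -0.0403, -0.0441 and -0.066, so the numbers were not taken as pairs. Those of 36P and 36C were 0.073, 0.279 and 0.126, of which 1 is below the limit of 0.1 set for every pair, although each library correlated best with its own number, and there the block gave the 77 calls above. With the replicate block, 36P against 24C gave 4467 calls (3552 higher, 915 lower), 4396 of them among the 4499, and DELLA gene Glyma.20G200500 was called (limma adjusted p = 0.0464).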
